A study of Mus musculus with 6 samples.

Results

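The genes Havcr1, Lcn2, Spp1, Timp1, Vcam1, Icam1, Tnfaip2, Ccl2 and Clu, which are used as markers of injury and inflammation in tubules and glomeruli of the kidney, were examined in glomeruli of dendrin knockout mice. They were taken as a list of 9 gene names, and every probe set that the array annotation pairs with exactly 1 of them was used. This gave 16 probe sets for 8 of the genes, of 45101 probe sets on the array. Spp1, which encodes the secreted phosphoprotein osteopontin, is paired with no probe set in the annotation used and was not analysed here.

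Glomeruli were isolated from 3 Dendrin KO mice and from 3 wild type littermates, called control below. All 6 mice were 13 months old and untreated as far as the labels say. The labels give their genetic background as 129S6SvEv/C57BL6, which in the methods is the strain of the targeted embryonic stem cells, and the line had been backcrossed to C57BL/6 for several generations. In the knockout allele, the whole coding sequence of dendrin, a protein of the podocyte slit diaphragm, is replaced in all cells of the body by a cassette with eGFP and a neomycin resistance gene. RNA from the glomeruli of 1 mouse went onto each Affymetrix Mouse Genome 430 2.0 array, and the values are log2 signals after background correction and normalization with GCRMA. On this scale, a value under 4 is called dim. Ddn, the gene of dendrin, was at 3.80, 3.81 and 3.80 in knockout mice, against 12.22, 12.81 and 12.31 in control mice. This is the order that the genotype labels call for. The position of its probes within the gene is not stated in the sources used here.

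Injured kidney cells switch on a set of genes that are silent or low at rest. Tubule cells then make the surface receptor Havcr1 (KIM-1), which binds dying cells, and the iron-siderophore binding protein Lcn2 (NGAL). Endothelial, mesangial and parietal cells respond to cytokines such as TNF through the transcription factor NF-κB, which acts on the genes of the adhesion molecules Vcam1 and Icam1, of the monocyte attractant Ccl2 and of Tnfaip2, a gene named for its induction by TNF. Timp1 encodes an inhibitor of matrix metalloproteinases, and Clu encodes clusterin, a secreted chaperone.

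The array of control 2 stood apart from the rest. The mean value of 10 leukocyte markers was 9.73, 9.28 and 10.09 in knockout mice, against 9.69, 7.65 and 10.16 in control mice, and control 2 was the lowest array for 8 of the 9 markers that are not dim. The mean of 6 markers of distal tubule and collecting duct was 6.33 to 6.41 in knockout mice, against 6.29, 8.17 and 6.45 in control mice, with control 2 the highest for all 4 that are not dim. That of 6 proximal tubule markers was 6.99 to 7.30 in knockout and 7.08, 8.17 and 6.45 in control, with control 2 the highest for 5. The podocyte genes Nphs1, Synpo, Podxl and Wt1 were bright on all arrays, with means of 13.60 to 13.72 in knockout and 13.43 to 13.69 in control. Cd3e, which marks T cells, was dim in all mice. In such preparations, fewer cells of a type and less RNA per cell cannot be told apart. The differences of the injury and inflammation genes are therefore given with and without control 2.

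The classical injury markers stayed at or near the floor of the array in the glomeruli of both genotypes. Both probe sets of Havcr1 (1450364_a_at and 1434716_at) stood at 2.20 on all 6 arrays, the lowest value on the array. Lcn2 (1427747_a_at) was at 2.79, 2.31 and 2.31 in the knockout mice and at 2.31 in each control mouse, and Timp1 (1460227_at) at 2.23, 2.22 and 2.23 in knockout and at 2.23, 2.23 and 2.27 in control. These 3 genes were dim in every mouse, and the single higher Lcn2 value, in knockout 1, also lies under 4. A value at the floor says that the probes gave no signal over background, and a low level of the RNA cannot be seen here. A dim value further above the floor can hold a weak signal.

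The other 5 genes were above the dim level, and only Tnfaip2 was past the criterion of the study. By this criterion a probe set must differ by more than 1.5-fold, up or down, with an unadjusted p under 0.05, here the two-sided p from limma, a linear model fitted across all probe sets. It was passed by 2 of the 16 probe sets, both of Tnfaip2 and both higher in knockout, where 0.18% of all probe sets on the array passed it. No probe set of these genes had an adjusted p under 0.05 (Benjamini-Hochberg over all probe sets), and each adjusted p was 1. Of all probe sets 0.00222% had one, namely that of Ddn alone.

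Tnfaip2 encodes a cytosolic protein with a part in forming membrane protrusions. Its brightest probe set (1438855_x_at) was at 11.84, 11.39 and 11.80 in knockout mice, against 11.13, 10.65 and 11.30 in control mice. All knockout values were above all control values, with knockout 2 and control 3 only 0.090 apart. Means were 11.68 ± 0.25 for knockout and 11.03 ± 0.34 for control (SD, n = 3 mice each), a difference of 0.65 (standard error 0.23, 95% interval 0.022 to 1.28) or 1.57-fold, with an unadjusted p of 0.0451 from limma. The suffix _x_at marks probe sets in which some probes may also match other transcripts.

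The second probe set (1416273_at), which carries no such mark, showed the same order of the groups with a wider gap. It was at 9.82, 9.46 and 9.75 in knockout mice, against 8.96, 8.38 and 9.19 in control mice. The groups were 0.27 apart. Means were 9.68 ± 0.19 for knockout and 8.84 ± 0.42 for control (SD, n = 3), a difference of 0.83 (standard error 0.26, 95% interval 0.14 to 1.53) or 1.78-fold, with an unadjusted p of 0.0279 from limma.

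The third probe set of Tnfaip2 (1457918_at) did not show this. Its values were 4.003, 4.003 and 3.97 in knockout and 3.87, 4.52 and 4.05 in control, close to the dim level, with control 2 the highest array. The difference was -0.15 (standard error 0.19). The probe sets of the gene therefore disagree, and the one that differs from the others is the faintest.

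Without control 2, the array with the lowest value of Tnfaip2 in the 2 bright probe sets, the differences were 0.46 and 0.60. The brightest probe set then missed the criterion (unadjusted p = 0.0818 from limma), while the second still passed it (unadjusted p = 0.0265). Neither probe set passed without knockout 1, without knockout 3 or without control 1, where the differences were 0.57 and 0.76, 0.59 and 0.80, and 0.70 and 0.89. For a single probe set, the exact permutation test over 3 mice against 3 cannot give a two-sided p under 0.1, and both gave 0.1.

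**Figure D1:**
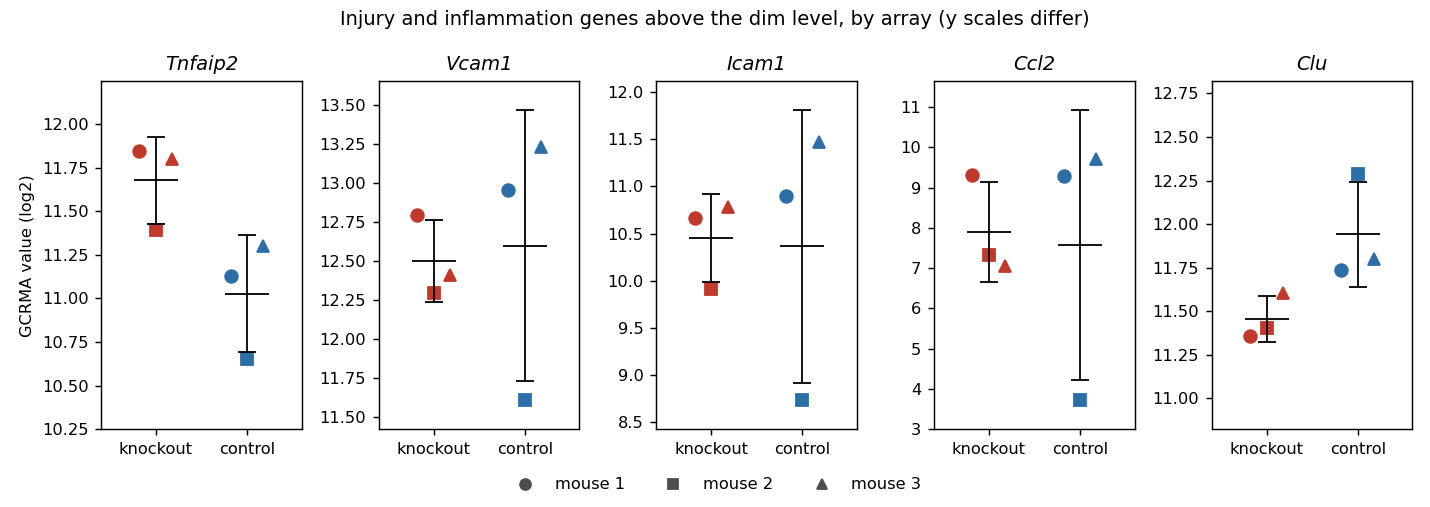
GCRMA value (log2, scales differ between panels) of the brightest probe set of the 5 genes above the dim level, knockout in red and control in blue, 1 symbol per mouse, with the mean and SD of 3 mice as a bar with whiskers. The groups do not overlap for Tnfaip2 and Clu, whereas for Vcam1, Icam1 and Ccl2 control 2 lies far below the other control mice.

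Some markers of endothelium, parietal epithelium and proximal tubule also separated the groups and are given beside Tnfaip2. The mean of 6 markers of the glomerular endothelium was 12.40 to 12.54 in knockout and 12.55 to 12.69 in control. Among them, the angiopoietin receptor gene Tek (-0.18), the VEGF receptor gene Kdr (-0.22) and the endomucin gene Emcn (-0.079) were lower in all 3 knockout mice than in all control mice, where 5.65% of all probe sets that are not dim were lower without overlap. The groups overlapped for the other 3, Pecam1 (-0.10), Cdh5 (-0.16) and Ehd3 (-0.042). The mesangial markers overlapped, with means of 11.98 to 12.12 in knockout and 11.91 to 12.08 in control. The tight junction gene Cldn1, used as a marker of parietal epithelial cells, was at 7.85, 7.27 and 7.08 in knockout and at 6.90, 6.34 and 6.75 in control, while the other parietal markers measured, Pax8 and Krt8, were dim. Among the 6 proximal tubule markers, only the water channel gene Aqp1 separated the groups, at 8.85, 8.75 and 8.45 in knockout and at 8.96, 9.02 and 9.06 in control. Of all probe sets that are not dim, 8.03% were higher and 5.65% lower in knockout without overlap. The part of these cells in the Tnfaip2 values was not tested.

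Promoter sequences of the genes above the dim level are shown for Tnfaip2, the gene whose bright probe sets separated the groups, and for Icam1, which did not and is another gene known to respond to NF-κB. Each is the stretch of 250 bases before the transcription start in RefSeq (GRCm38.p6), on the plus strand, for Tnfaip2 chr12:111442411-111442660 and for Icam1 chr9:21015690-21015939. Capitals mark the 9-base core GGNNNTTCC, which NF-κB sites of this class share, on either strand (GGAANNNCC on the other).

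Tnfaip2: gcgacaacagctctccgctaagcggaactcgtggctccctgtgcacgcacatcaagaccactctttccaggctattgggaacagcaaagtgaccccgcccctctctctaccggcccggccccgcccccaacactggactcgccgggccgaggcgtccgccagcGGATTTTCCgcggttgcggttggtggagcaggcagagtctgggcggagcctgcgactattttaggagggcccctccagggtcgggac
Icam1: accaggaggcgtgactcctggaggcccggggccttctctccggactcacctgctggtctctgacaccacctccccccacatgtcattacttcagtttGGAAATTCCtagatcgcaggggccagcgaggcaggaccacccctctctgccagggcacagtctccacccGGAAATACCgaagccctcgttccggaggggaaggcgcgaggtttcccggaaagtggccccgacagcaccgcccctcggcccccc

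Tnfaip2 holds the core once, as GGATTTTCC from 87 to 79 bases before the start. Icam1 holds it at 2 places, as GGAAATTCC from 153 to 145 and as GGAAATACC from 84 to 76 bases before the start. Of the 9 windows of the 6 listed genes with a promoter in the table (Havcr1, Lcn2, Spp1, Timp1, Icam1 and Tnfaip2), only these of Icam1 and Tnfaip2 hold it. Among all 32851 windows of the same length, 15.7% hold the core, which was chosen with the sequences in view. A match is a description of the letters and not a site.

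The adhesion molecules and the chemokine overlapped between the genotypes over all 6 mice and varied widely among the control mice. Vcam1, which binds leukocyte integrins, was at 12.79, 12.29 and 12.41 in knockout mice, against 12.95, 11.61 and 13.23 in control mice in its brightest probe set (1448162_at). The knockout values all lay between the lowest and the highest control value. The difference was -0.097 (standard error 0.50, 95% interval -1.46 to 1.26), and the other 2 probe sets (1415989_at and 1451314_a_at) were at -0.17 and -0.24. Without control 2, the 3 differences were -0.59, -0.66 and -0.88 (unadjusted p = 0.0605, 0.0540 and 0.0503 from limma), each over 1.5-fold, and none passed the criterion. All knockout values were then below those of control 1 and control 3. The share of all probe sets that separate in this way was not determined, and control 2 was left out with its values known.

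Icam1 (1424067_at), the ligand of another family of leukocyte integrins, was at 10.67, 9.91 and 10.78 in knockout and at 10.90, 8.73 and 11.47 in control. Control 2 was again the lowest and control 3 the highest array. Means were 10.45 ± 0.47 for knockout and 10.36 ± 1.45 for control (SD, n = 3), a difference of 0.088 (standard error 0.85, 95% interval -2.20 to 2.37). Without control 2, the difference was -0.73 (unadjusted p = 0.151 from limma). All knockout values were then below those of control 1 and control 3, again with no share of all probe sets to compare.

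Ccl2 (1420380_at) had the widest range of these genes, 5.996 on the log2 scale over the 6 mice. It was at 9.32, 7.33 and 7.06 in knockout mice, against 9.30, 3.72 and 9.71 in control mice. In control 2 it was dim, whereas knockout 1 stood level with control 1 and control 3. Means were 7.90 ± 1.24 for knockout and 7.58 ± 3.35 for control (SD, n = 3), and the difference of 0.33 had a standard error of 1.99. Without control 2, it was -1.60, a 3.04-fold lower value in knockout (unadjusted p = 0.161 from limma). The leukocyte markers were also lowest in control 2, as given above, and the part of leukocytes in the values of Vcam1, Icam1, Ccl2 and Tnfaip2 was not tested. The intervals of Vcam1, Icam1 and Ccl2 are wide enough to hold a change of over 2-fold in either direction.

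**Figure D2:**
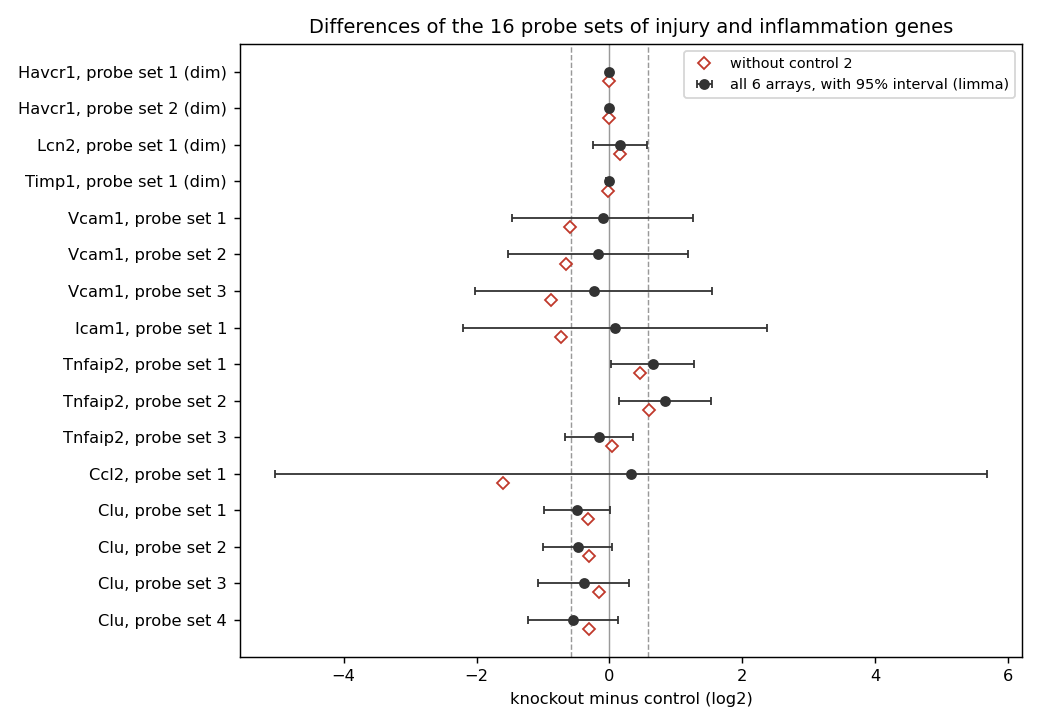
Difference between knockout and control (log2) of each of the 16 probe sets, ordered by brightness within a gene, as black points with the 95% interval from limma over all 6 arrays and as open red diamonds without control 2. Dashed lines mark a 1.5-fold difference. The diamonds of Vcam1, Icam1 and Ccl2 lie below 0, those of the 2 brighter Tnfaip2 probe sets above 0.

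Clu was lower in the knockout glomeruli by less than 1.5-fold and did not pass the criterion. Its brightest probe set (1437689_x_at) was at 11.35, 11.40 and 11.60 in knockout and at 11.74, 12.29 and 11.80 in control. All knockout values were below all control values, and control 2 was the highest. Means were 11.45 ± 0.13 for knockout and 11.94 ± 0.30 for control (SD, n = 3), a difference of -0.49 (standard error 0.18, 95% interval -0.98 to 0.0041) with an unadjusted p of 0.0512 from limma. The other 3 probe sets of Clu differed by -0.48 (1437458_x_at), -0.39 (1454849_x_at) and -0.54 (1418626_a_at). The groups did not overlap in 3 of the 4 probe sets, where 5.65% of all probe sets that are not dim were lower in knockout without overlap, the exception being 1454849_x_at, where knockout 3 (10.25) was above control 1 (10.09).

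Without control 2, the differences of the Clu probe sets were -0.32, -0.30, -0.15 and -0.30, each smaller in size. The brightest then had an unadjusted p of 0.0394 from limma at a fold of 1.24. Without control 1, the probe sets 1437458_x_at and 1418626_a_at passed the criterion, at -0.61 and -0.73. Clusterin is made in several nephron segments, and the markers of distal tubule were highest in control 2 as given above. The part of tubule RNA in the Clu values was not tested.

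Of the 12 probe sets of these genes that are not dim, 2 were higher in all knockout than in all control mice, both of Tnfaip2, and 3 were lower, all of Clu. Over all 19619 probe sets that are not dim, 8.03% were higher and 5.65% lower without overlap. The probe sets of a gene measure the same RNA and do not count as separate observations. With 1 probe set per gene, the median difference of the 8 genes was 0.044, and the median over all probe sets on the array was 0. Both include dim probe sets. Among those that are not dim, the median was 0.088 for the injury and inflammation genes and 0.015 for all probe sets. Without control 2, the median of the 8 genes was -0.17.

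The 5 genes above the dim level had 1 array in common at an end of their range. Control 2 was the lowest array for Tnfaip2, Vcam1, Icam1 and Ccl2 and the highest for Clu, each in its brightest probe set. The share of all probe sets that are not dim with control 2 at an end of their range was not determined. Whether this is particular to these genes, or to the marker and related lists, was therefore not tested. With each probe set set to mean 0 over the 6 arrays, Vcam1 and Icam1 were the closest pair, with a mean absolute difference of 0.33 (log2), and Ccl2 and Clu the most distant, with 1.77. This distance is not scaled to the range of a gene, and Ccl2 had the widest range of these genes. Tnfaip2 lay 0.45 from Vcam1, 0.57 from Clu, 0.61 from Icam1 and 1.63 from Ccl2. It was thus no closer to Icam1 than to Clu, which ran the other way in control 2.

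**Figure D3:**
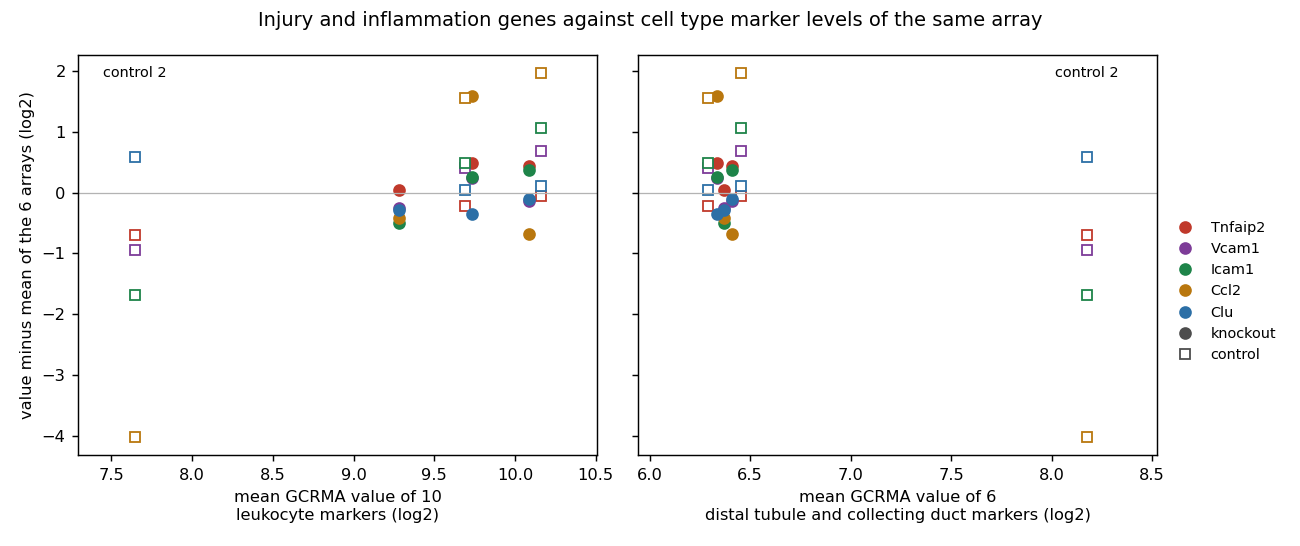
Value of the brightest probe set of 5 genes relative to its mean over the 6 arrays (log2) against the mean GCRMA value (log2) of 10 leukocyte markers (left) and of 6 markers of distal tubule and collecting duct (right) on the same array, with filled circles for knockout and open squares for control. Control 2 lies apart on both axes, with Ccl2, Icam1, Vcam1 and Tnfaip2 below 0 and Clu above 0.

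The genes with the nearest profiles over the 6 arrays differed for each gene. Candidates were probe sets of other single genes that are not dim and span at least 0.5, and nearness is the same mean absolute difference after both are set to mean 0. Nearest to Tnfaip2 were Ptgir, the prostacyclin receptor gene (0.097), Cdkn1a, which encodes a cyclin-dependent kinase inhibitor (0.11), and the gene of sclerostin, Sost, a secreted inhibitor of Wnt signalling (0.12). Ptgir was at 6.87, 6.41 and 6.89 in knockout and at 6.37, 5.62 and 6.55 in control.

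Nearest to Icam1 were 2 probe sets of Lcp1, which encodes an actin-bundling protein of leukocytes (0.096 and 0.097), and Dock2, an activator of Rac in leukocytes (0.11). Nearest to Vcam1 were the cytokine gene Ltb (0.10), the protease inhibitor gene Slpi (0.11) and Plekho2 (0.11). For Ccl2, with its wider range, the nearest lay at larger distances. They were the endothelial adhesion molecule gene Sele (0.65), the macrophage receptor gene Clec4e (0.77) and the metalloproteinase gene Mmp12 (0.77). Sele was at 8.59, 7.04 and 8.73 in knockout and at 9.28, 4.38 and 10.26 in control, again lowest in control 2. Nearest to Clu were the syndecan gene Sdc1 (0.050), the adhesion molecule gene Ncam1 (0.063) and Osgin1 (0.070).

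Related genes were described as 4 lists with 1 probe set per gene, the brightest. None of their measured genes passed the criterion. Of 25 other kidney injury markers, 15 were above the dim level, 9 of these with a difference above and 6 with one below 0, and the median over the 25 was 0. The smallest p values of the list were those of the annexin genes Anxa2 (0.080, unadjusted p = 0.0363 from limma) and Anxa3 (0.17, unadjusted p = 0.0568) and of Cdkn1a (0.49, unadjusted p = 0.0629). Cdkn1a was at 10.08, 9.56 and 9.63 in knockout and at 9.27, 9.04 and 9.49 in control. The groups of these 3 genes did not overlap, 3 of the 15 above the dim level, where 8.03% of all probe sets that are not dim were higher in knockout without overlap. Without control 2, most of the 15 differences were below 0, while those of Anxa2, Anxa3 and Cdkn1a were 0.089, 0.23 and 0.38. The injury keratins Krt8, Krt18, Krt19 and Krt20 and the fibrinogen genes Fga, Fgb and Fgg were dim.

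Of 23 genes of the TNF and NF-κB pathway, 20 were above the dim level, 14 of them with a difference above 0, and the median over the 23 was 0.059. Control 2 was the lowest array for 12 of the 20. The smallest p values were those of the manganese superoxide dismutase gene Sod2 (0.11, unadjusted p = 0.0602 from limma), the adaptor gene Traf2 (0.16) and the cytokine gene Il1b (0.59, standard error 0.56). Sod2 was at 10.80, 10.74 and 10.78 in knockout and at 10.67, 10.60 and 10.74 in control, without overlap. It was the only 1 of the 20 to be higher without overlap, as were 8.03% of all probe sets that are not dim. Without control 2, most of the 20 differences were below 0, while those of Sod2, Traf2 and Il1b were 0.071, 0.14 and 0.27.

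Of 23 chemokines and other adhesion molecules, 17 were above the dim level, and the median over the 23 was 0. Control 2 was the lowest array for 10 of the 17. The junction molecule gene Jam2 was lower in all 3 knockout mice than in all control mice, by a difference of -0.11. It was the only 1 of the 17 to be lower without overlap, as were 5.65% of all probe sets that are not dim. The differences of the macrophage growth factor gene Il34 and of the neutrophil attractant gene Cxcl1 were 0.25 and 0.70 (standard error 0.11 and 0.42). Cxcl1 was at 9.87, 8.82 and 9.50 in knockout and at 8.42, 8.35 and 9.30 in control, groups that overlap.

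Of 27 receptors and partners of the injury and inflammation genes, 20 were above the dim level, and the median over the 27 was 0.0093. The groups overlapped for all 20, whereas they did not for 13.7% of all probe sets that are not dim, in either direction. The smallest p values were those of the metalloproteinase gene Mmp3 (0.84, standard error 0.49) and the integrin gene Itgb5 (0.23), followed by Itgb3 (0.11), which was dim. Mmp3 was at 5.40, 6.45 and 4.93 in knockout and at 4.30, 4.84 and 5.13 in control.

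**Figure D4:**
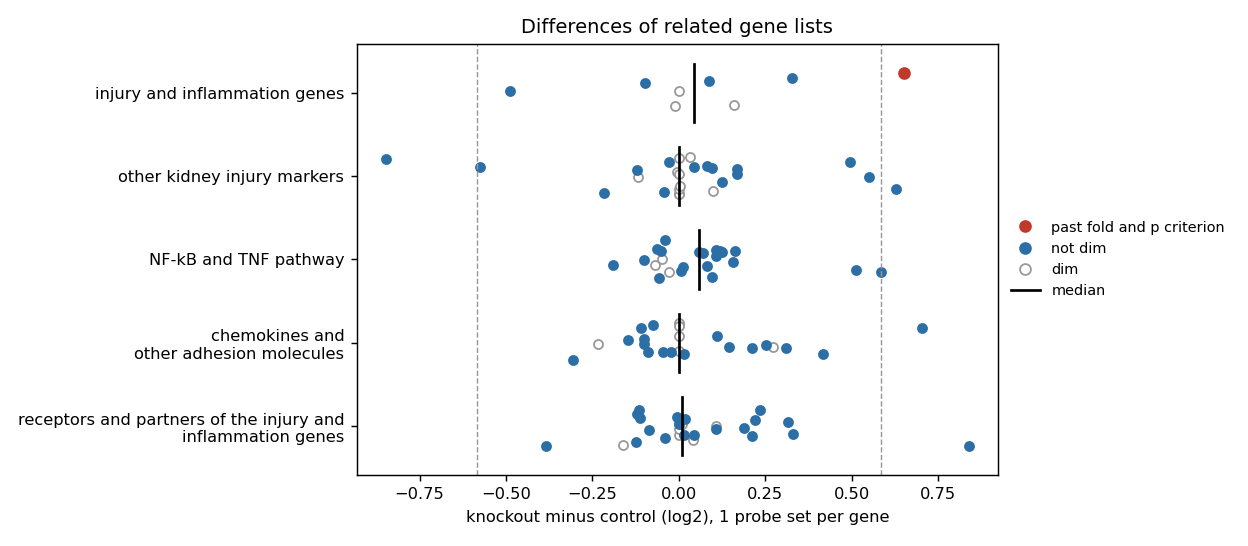
Difference between knockout and control (log2) of the brightest probe set of each gene, 1 point per gene, for the injury and inflammation genes and 4 related lists. Open points are dim, vertical bars are medians and dashed lines mark a 1.5-fold difference. The 5 medians, dim genes included, lie between 0 and 0.059, and the only point past the criterion, in red, is Tnfaip2 at 0.65. Over the genes that are not dim, the medians run from -0.023 (chemokines and other adhesion molecules) to 0.088 (injury and inflammation genes).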

How the data were processed

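The deposited values are log2 GCRMA values, made by the authors from Affymetrix arrays with the gcrma package (version 2.30.0): background subtraction by probe sequence, quantile normalization between arrays and summary of the probes of a probe set. Quantile normalization forces the arrays to 1 distribution, and probe sets without signal lie at a common floor. Raw intensities were not used here.

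Probe sets were paired with genes through the platform annotation, symbols were brought up to date through gene identifiers, and 34958 probe sets have 1 gene symbol, 932 several and 9211 none. For the comparison of the genotypes, lmFit and eBayes of limma 3.58.1 (R 4.3.3) were run over all 45101 probe sets without filter or covariate, with Benjamini-Hochberg adjustment. The fit has 4 residual and 0.312 prior degrees of freedom. The number of arrays limits the precision. The procedure was tested on simulated data.

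The genes and lists were chosen with earlier results of these data known. Of each related list, genes past the criterion and the 3 with the smallest p were named, together with markers of the cell types a glomerular preparation can hold and the 3 nearest profiles of each gene. Alternatives were SAM (named in the methods, written out in code), other priors, filters, normalizations, an offset, array weights, a replicate block and the omission of each array.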

Additional observations from a re-analysis of the deposited data

How the results depend on the processing

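The count of 2 probe sets past the criterion stayed at 2 with SAM, an intensity trend with a robust prior (fitted on probe sets that vary), a filter at a mean of log2 4, median centring, an offset of 16 and the ratio of unlogged means. It was 1 with quantile normalization once more and 1 with array weights, each time without 1438855_x_at (0.64 and 0.55), and 0 at a fold over 2 or at an adjusted p under 0.05. With 1 array left out in turn it ran from 0 to 2, and without control 1 the 2 were probe sets of Clu and not of Tnfaip2. On the whole array, 81 probe sets passed in the main fit. The total was 106 with SAM, 91 with the trend, 111 with the filter and 87 with median centring. It was 54 with the offset, 83 with unlogged means, 81 with quantile normalization once more and 104 with array weights. At a fold over 2 it was 14, at an adjusted p under 0.05 it was 1, and with 1 array left out 78 to 140. The sign of the 2 bright Tnfaip2 probe sets and of the 4 Clu probe sets was the same under every alternative. Most of these alternatives could not have changed it. SAM, other priors, the filter and the replicate block leave each difference as it is. Where the groups do not overlap, array weights, an offset, unlogged means or the omission of 1 array cannot change the sign. Among these probe sets the groups overlapped only for 1454849_x_at of Clu. Its difference ran from -0.56 to -0.15 with 1 array left out.

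Genes near 0 changed sign. With array weights Icam1 was -0.31 and Ccl2 -0.70, with the ratio of unlogged means -0.25 and -0.67, and Timp1 was 0.0078 with median centring. With 1 array left out, differences ran from -0.73 to 0.64 for Icam1, from -1.60 to 1.40 for Ccl2, from -0.59 to 0.22, -0.66 to 0.16 and -0.88 to 0.16 for the Vcam1 probe sets, from -0.29 to 0.035 for 1457918_at and from -0.018 to 0.0022 for Timp1. The median of the 8 genes ran from -0.17 to 0.19. Fewer arrays were fitted only where 1 was left out, and the cause of the changes was not tested.

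The replicate numbers are not stated to pair the mice. The deviations of same-numbered arrays from their group means correlated at 0.0949, 0.352 and 0.248 across probe sets. Every array was closest to the one with its own number, a hint from the data alone. For control 1 this was nearly a tie, at 0.0949 with knockout 1 and 0.0943 with knockout 3. The deviations cancel out within each group, so the correlations depend on each other and do not establish a pairing. With the replicate number as a replicate block, 2 probe sets passed the criterion, and on the whole array 64 in place of 81.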
